A study of Mus musculus with 2 samples.

Results

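The genes described here encode melanocortin receptors and the accessory proteins that bind them. They are Mc2r (ENSMUSG00000045569.7), Mrap (ENSMUSG00000039956.9), Mrap2 (ENSMUSG00000042761.14), Mc1r (ENSMUSG00000074037.3) and Mc5r (ENSMUSG00000007480.4). These 5 genes were taken by gene name from the 55536 genes annotated in GENCODE M21. Their RNA was measured by strand-specific sequencing of ribosome-depleted total RNA, 300 ng per library, from the whole adrenal gland of male mice 8 to 10 months old. The mice came from a cross labelled 5xFAD/CAST: 5xFAD is a transgenic strain used to model brain amyloid and CAST an inbred strain derived from wild mice. The only group held 2 libraries, labelled biological replicates 1 and 2, with a biosample each but a shared donor entry, so the spread between them may not be that between animals. No other genotype, treatment or age was analysed here, and how reads from CAST alleles affected the values was not tested.

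Melanocortin receptors couple to the stimulatory G protein and raise cyclic AMP. MC2R is the corticotropin receptor of the adrenal cortex, and it reaches the cell surface and binds corticotropin only together with MRAP, a small protein with a single membrane span that forms antiparallel dimers. MRAP2 is the paralog of MRAP and is best known as a partner of MC4R in the brain. MC1R controls pigment type in melanocytes, and MC5R is known from exocrine glands such as the sebaceous and lacrimal glands.

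The sequences that set the accessory proteins apart are the exon that Mrap and Mrap2 share and the junctions that separate the coding from the other Mrap transcripts. Each accessory gene has an exon of 100 bases, wholly coding and in the same reading phase, which holds the membrane-spanning segment. It lies at chr16:90747524-90747623 in Mrap and at chr9:87175794-87175893 in Mrap2, on the plus strand of mm10 in both genes, and is read 5′ to 3′ from the GENCODE M21 transcripts. Capitals mark bases that are identical between the genes at the same position.
Mrap: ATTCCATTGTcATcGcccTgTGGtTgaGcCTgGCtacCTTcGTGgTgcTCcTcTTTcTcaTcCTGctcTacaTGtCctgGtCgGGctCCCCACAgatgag
Mrap2: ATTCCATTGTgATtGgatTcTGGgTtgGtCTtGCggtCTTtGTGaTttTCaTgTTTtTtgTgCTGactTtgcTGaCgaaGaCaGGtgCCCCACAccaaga
The exons matched at 56 of 100 bases, and the longest identical run, 10 bases, stood at their 5′ end. A read covering most of this exon therefore differs between the paralogs at many positions.

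In Mrap, 4 annotated transcripts share the end of the first coding exon and then join different exons. The last 30 bases of that exon, at chr16:90738640-90738669 of mm10, are in lower case, and the start of the next exon is in capitals, up to the in-frame stop codon where one is reached.
Mrap-201: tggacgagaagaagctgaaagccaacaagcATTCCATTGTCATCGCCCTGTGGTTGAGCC
Mrap-202: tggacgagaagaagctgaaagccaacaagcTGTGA
Mrap-203: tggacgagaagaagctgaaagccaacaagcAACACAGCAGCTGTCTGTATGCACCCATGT
Mrap-204: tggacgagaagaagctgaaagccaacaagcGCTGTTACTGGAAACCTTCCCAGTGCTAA
Only the Mrap-201 junction, among these 4, continues into the shared exon in the open frame, and its reading frame holds 127 codons before a TAG stop. Mrap-202 reaches a TGA stop after 36 codons and Mrap-204 a TAA stop after 44 codons, and both are annotated as targets of nonsense-mediated decay. Mrap-203 is annotated as a processed transcript with no coding sequence. The capitals begin at position 90747524 in Mrap-201, 90746642 in Mrap-202, 90746311 in Mrap-203 and 90747375 in Mrap-204.

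**Figure D1:**
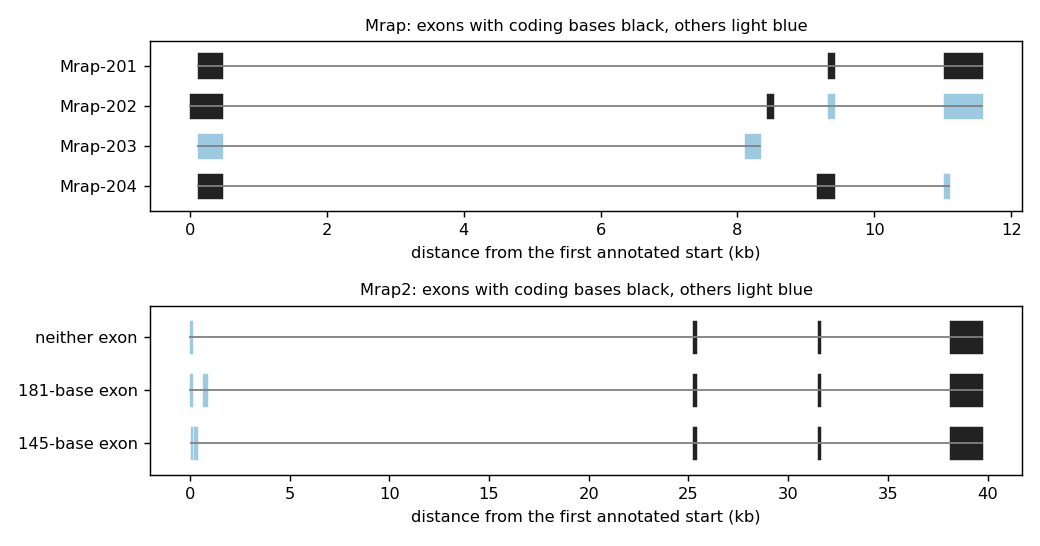
Exons of the annotated Mrap and Mrap2 transcripts, drawn to scale against the distance in kb from each gene's first annotated start, with exons that hold coding bases in black and other exons in light blue. The Mrap transcripts differ in the exon after the first, while the Mrap2 transcripts, labelled by the length of the noncoding second exon, differ only at the 5′ end.

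The libraries held 29204658 counts on annotated genes in replicate 1 and 26322473 in replicate 2. TPM, a share of all transcripts, is the level per transcript length that the authors deposited, scaled over all features of the gene table, and protein-coding genes held 36.4% of it in replicate 1 and 37% in replicate 2. Markers of the labelled tissue were present: all 6 adrenal cortex genes reached 1 TPM in both libraries. They ranged from Nr5a1 at 136 ± 14.6 TPM to Star at 5704 ± 171 TPM. All 6 chromaffin cell genes also reached 1 TPM, from Ddc at 37.2 ± 1.92 TPM to Chga at 861 ± 77.2 TPM (mean ± SD, n = 2). Reaching 1 TPM does not single out this tissue, since all 9 white adipocyte and all 7 macrophage markers described below did so too. With 1 group of 2 libraries no comparison between groups was possible, and a two-sided sign-flip over 2 libraries cannot give a p below 0.5, so no test was run. Errors below are SDs over the 2 libraries unless a counting error is named.

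Of the 5 genes, Mc2r, Mrap and Mrap2 were detected, meaning at least 1 TPM in each library, while Mc1r and Mc5r were not. Among all annotated genes 25.5% passed this limit, and among the 22028 protein-coding genes 56.2% did. Mc2r and Mrap stood close together near the top of the protein-coding genes, Mrap2 stood far below them, and Mc1r and Mc5r rested on a handful of reads. At a limit of 2 TPM only Mc2r and Mrap remained, since Mrap2 lay below it in both libraries.

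Mc2r, the corticotropin receptor gene, was at 84.8 TPM in replicate 1 and 89.4 TPM in replicate 2, from 3719 and 3500 expected counts. It ranked 564th by mean TPM among protein-coding genes, with 97.4% of them lower. Its single annotated transcript has 3 exons on the minus strand of chromosome 18 (68406907 to 68429320, mm10), and all 891 coding bases lie in the last exon. In whole-gland RNA a smaller number of cells of a type and less RNA per cell cannot be told apart, which holds for every level given here.

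Mrap, the accessory protein gene, was at 65.4 TPM in replicate 1 and 74.3 TPM in replicate 2, from 1653 and 1688 expected counts. It ranked 796th, with 96.4% of protein-coding genes lower. The receptor was therefore above its accessory gene in both libraries of the gene table, where the lowest Mc2r value exceeded the highest Mrap value. The ratio of Mc2r to Mrap in TPM was 1.30 in replicate 1 and 1.20 in replicate 2 (1.25 ± 0.0666).

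That order depended on the table. The second transcript table, which the authors estimated directly from the reads and which was summed here per gene, gave Mc2r 77.8 and 77.5 TPM and Mrap 73.7 and 81.7 TPM in replicates 1 and 2. Its Mc2r to Mrap ratio was 1.06 in replicate 1 and 0.948 in replicate 2. The order turned in replicate 2 and the genes overlapped. Set against the coding transcript Mrap-201 alone, a comparison added after the values were seen, Mc2r was 1.54 and 1.37 times as high in the first transcript table and 1.56 and 1.33 times as high in the second. Mrap-201 is a part of Mrap, so this ratio is higher than that to the whole gene by construction. It does not settle the order of the genes, and only says that Mc2r exceeded this transcript in both tables.

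**Figure D2:**
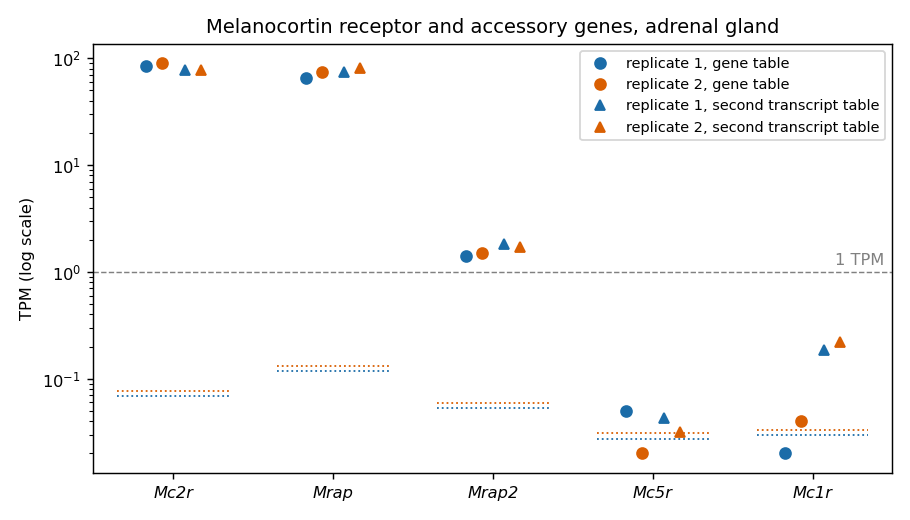
TPM (log scale) of the 5 genes in each library, as circles from the gene table and triangles from the second transcript table, with the TPM that 3 counts would give in each library as dotted lines and the 1 TPM limit dashed. Mc2r and Mrap lie between 65.4 and 89.4 TPM in both tables, Mrap2 between 1.42 and 1.84 TPM, and Mc5r and Mc1r below the limit.

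Mrap2, the paralog of Mrap, was at 1.42 TPM in replicate 1 and 1.51 TPM in replicate 2. These levels rested on 79 counts (exact Poisson 95% interval 62.5 to 98.5) and 76 counts (59.9 to 95.1). It ranked 12033rd, with 45.4% of protein-coding genes lower, so it stood below the middle of them. Mrap was 46.0 times as high as Mrap2 in replicate 1 and 49.2 times in replicate 2 (47.6 ± 2.23 in TPM), a gap far larger than the spread between the libraries. The second transcript table gave 40.1 and 47.3 times. Mrap2 spans 39740 bases of the plus strand of chromosome 9 (87144306 to 87184045, mm10).

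Mc5r, which lies on the same chromosome as Mc2r, was at 0.05 TPM in replicate 1 and 0.02 TPM in replicate 2. It had 5 counts (exact Poisson 95% interval 1.62 to 11.7) in replicate 1 and 2 counts (0.242 to 7.22) in replicate 2. The second transcript table gave 6 and 4 estimated counts, and in it too Mc5r stayed near the level that 3 counts give. Mc5r lies on the plus strand of chromosome 18 (68337596 to 68342446, mm10), and 64460 bases separate its end from the end of Mc2r, which is transcribed towards it. Pooled over the libraries, 7219 counts fell on Mc2r and 7 on Mc5r. Per effective transcript length, as deposited for replicate 1, the ratio was 2562 (95% interval 1244 to 6373, counting error only). Of these receptor genes one thus stood in the top few percent of protein-coding genes and the other at a few reads.

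Mc1r, the pigment cell receptor gene, was at 0.02 TPM in replicate 1 and 0.04 TPM in replicate 2, from 2 counts (exact Poisson 95% interval 0.242 to 7.22) and 4 counts (1.09 to 10.2). In the gene table Mc1r and Mc5r were not separated from each other, since their intervals overlapped in both libraries. Mc1r is 1 exon on the plus strand of chromosome 8 (123407107 to 123410744, mm10) with 948 coding bases. The second transcript table gave it 23.9 and 25.6 estimated counts, or 0.185 and 0.220 TPM, above the gene table in both libraries but still under 1 TPM. In that table Mc1r thus stood above Mc5r, which was at 0.0432 and 0.0319 TPM, in both libraries. The annotated gene Gm20388, whose span covers Mc1r without an exon there, had 311 and 623 counts in the gene table and 1042 and 1091 in the second, and its part in the difference at Mc1r was not tested. The overlapping antisense entry Gm38092 had 0 counts in both tables.

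Of 6 markers of melanocytes, the cells known for Mc1r, 1 was detected, Oca2 at 2.24 and 2.12 TPM from 114 and 123 counts. Tyr and Tyrp1, which make pigment, had 0 counts in both libraries of the gene table, Dct had 1 count in each library, Mlana 1 and 0, and Pmel 11 and 15. In the second transcript table Dct was at 0.370 and 0.325 TPM, against 0.02 TPM in each library of the gene table, Tyr at 0.0188 and 0.0582 TPM, and Tyrp1 at 0. The summed level of the 6 genes in the gene table was 2.67 TPM in replicate 1 and 2.43 TPM in replicate 2.

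The other melanocortin receptor genes had no reads in the gene table. Mc3r and Mc4r, which act in the brain in energy balance, were at 0 counts in both libraries, where 3 counts would have been 0.0415 and 0.0465 TPM for Mc3r and 0.0388 and 0.0434 TPM for Mc4r. The second transcript table placed 1.03 and 1.01 estimated counts on Mc3r and 0 on Mc4r. Of the 5 receptor genes of the family, Mc2r alone was thus detected in either table, while Mc4r, the best known partner of MRAP2, had no read beside the Mrap2 levels given above.

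The coding transcript led Mrap in both libraries and both transcript tables. In the first table Mrap-201 was at 54.9 TPM in replicate 1 and 65.1 TPM in replicate 2, 84.1% and 87.7% of the gene. The second table gave it 67.5% and 71.1%. The share thus differed more between the tables than between the libraries, and the tables did not overlap.

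The remainder lay in the 3 transcripts that lack the Mrap-201 junction: Mrap-202 and Mrap-204, with early stop codons, and Mrap-203, with no annotated coding sequence. Together they held 10.4 and 9.15 TPM in the first table, or 15.95% and 12.33% of the gene, and 24.0 and 23.6 TPM in the second, or 32.5% and 28.9%. Mrap-202, which carries the short exon with the TGA stop, was at 4.64 and 4.32 TPM in the first table and 13.1 and 12.96 TPM in the second. Most of the difference between the tables was thus at this transcript, which has the same last 2 exons as Mrap-201. Mrap-204 was at 4.08 and 3.05 TPM in the first table and 6.65 and 5.96 TPM in the second. Mrap-203 was the lowest in the first table, with 1.70 and 1.78 TPM, and in the second, with 4.21 and 4.70 TPM.

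The 3 annotated Mrap2 transcripts share 1 identical coding sequence of 624 bases and differ only in noncoding 5′ exons. One has a noncoding second exon of 145 bases, another a noncoding second exon of 181 bases, and the remaining one has neither. Their shares therefore concern the 5′ end of the RNA and not the protein.

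The leading Mrap2 transcript was not the same in the 2 libraries. The transcript with the 145-base exon held 87.7% of the gene's TPM in replicate 1 and 42.8% in replicate 2 in the first table, and 84.4% and 28.9% in the second. The transcript with the 181-base exon held 12.4% and 46.7% in the first table and 15.6% and 71.1% in the second. Both tables therefore placed the 145-base form first in replicate 1 and the 181-base form first in replicate 2.

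The counts behind this were few. In the first table the 145-base form had 68.9 counts (posterior SD 8.23, as deposited) in replicate 1 and 32.2 (8.30) in replicate 2, and the 181-base form had 10.1 (5.91) and 36.4 (8.01). In replicate 2 these forms differed by less than their posterior SDs. The form with neither exon was at 0 in replicate 1 and at 0.16 TPM, 10.5% of the gene, in replicate 2, and at 0 in both libraries of the second table. A change of leader with the same leaders in both tables was seen in 3.41% of the 13021 genes that have at least 2 transcripts and a mean count of 20 or above. In the 984 such genes with a mean count of 50 to 100, the range that holds Mrap2, it was seen in 8.43%. The sum over transcripts, 1.42 and 1.51 TPM, differed little between the libraries while the shares moved.

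**Figure D3:**
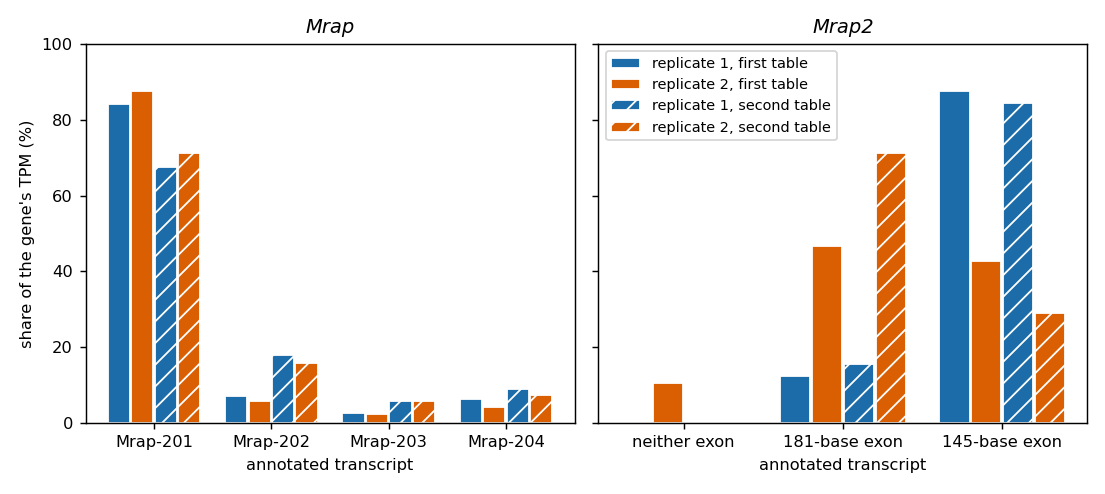
Share in percent of the gene's TPM held by each annotated transcript of Mrap and Mrap2, by library and by transcript table (hatched bars, second table). Mrap-201 holds 67.5% to 87.7% of Mrap throughout, while the Mrap2 transcripts with the 145-base and the 181-base 5′ exon change places between replicates 1 and 2.

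Between the libraries, the detected genes of the group differed little. The log2 ratio of replicate 2 to replicate 1, from counts over scaled library totals with its Poisson standard error, was 0.05 ± 0.03 for Mc2r, 0.17 ± 0.05 for Mrap and 0.09 ± 0.23 for Mrap2. The Mrap ratio, though small, was well beyond its counting error, also in the second transcript table (0.15 ± 0.04). None of these 3 genes passed 1.5-fold, against 6.71% of all 16383 genes whose mean count reached 20. At that share, none past this fold is the usual outcome for so few genes. For Mc1r and Mc5r the ratios were 0.97 ± 1.14 and -1.02 ± 1.10, so their counts could not separate the libraries.

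Fat markers, and some macrophage markers, differed between the same libraries. All 9 white adipocyte markers were lower in replicate 2, 7 of them past 1.5-fold, and their summed level was 840 TPM in replicate 1 and 516 TPM in replicate 2, with a median log2 ratio of -0.85. They ranged from Retn at 13.6 ± 3.86 TPM to Car3 at 188 ± 60.2 TPM. Mouse adipocytes are known to express Mc2r and Mrap, and the part of fat content in the levels of these genes was not tested.

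The macrophage list, 7 genes from Adgre1 at 4.67 ± 1.56 TPM to Lyz2 at 114 ± 45.7 TPM, summed to 264 and 183 TPM, with a median log2 ratio of -0.53. Of these genes 5 were lower in replicate 2, 2 of them past 1.5-fold, and 2 were higher. Lyz2, at 146 and 81.4 TPM, made up most of the difference in the sum. The cortex markers summed to 17125 and 18087 TPM, with a median log2 ratio of 0.05, and the chromaffin markers to 2017 and 2327 TPM, with a median of 0.16. Over all genes with enough counts the median was -0.01. The log2 ratios ranged from -0.09 to 0.41 over the cortex markers and from 0.02 to 0.56 over the chromaffin markers. The Mc2r ratio was near the cortex median and the Mrap ratio near the chromaffin median, but both lay within both ranges. The part of cell makeup in either was not tested.

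**Figure D4:**
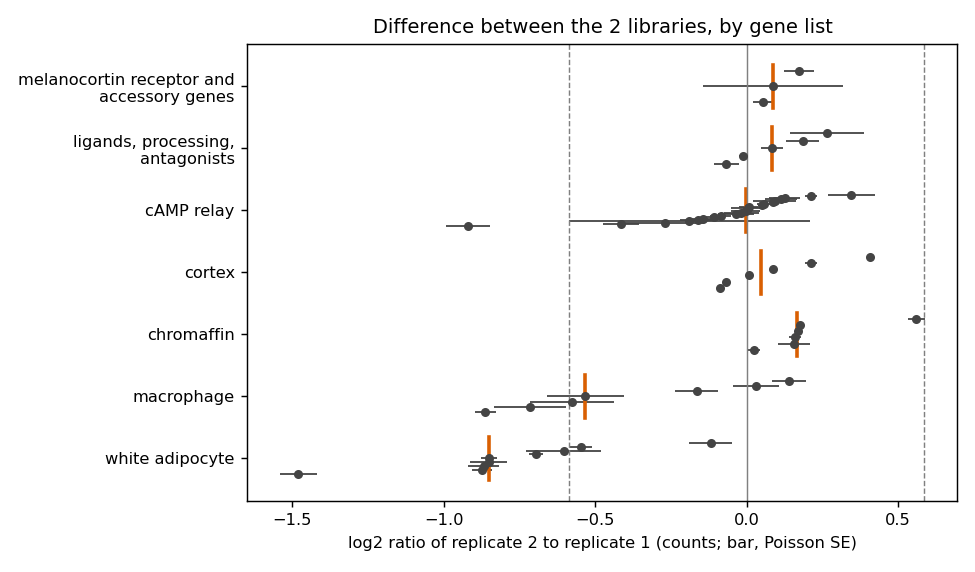
Log2 ratio of replicate 2 to replicate 1 for each gene whose mean count reached 20 (dots; bars, Poisson standard error), by list, with the list median as an orange line and 1.5-fold as dashed lines. Mrap, Mrap2 and Mc2r lie at 0.05 to 0.17, while the white adipocyte median is at -0.85 and the macrophage median at -0.53.

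Of the genes that make, process and oppose the melanocortins, those of processing were detected, while the hormone precursor Pomc and the antagonist Agrp were not. Of 8 listed genes 7 were matched by symbol, Asip was not analysed here, and 5 were detected, against 56.2% of protein-coding genes. Pomc, the precursor of corticotropin and the melanocyte-stimulating hormones, was at 0.64 and 0.76 TPM, from 17 counts in each library, and so missed the limit. The prohormone convertase genes Pcsk1 and Pcsk2 were at 9.92 and 11.2 TPM and at 2.07 and 2.50 TPM.

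Cpe, the carboxypeptidase that trims the peptides after cleavage, was the highest of the list at 386 and 390 TPM, above Mc2r. Agrp, an antagonist known from the hypothalamus and the adrenal gland, was at 0.81 and 1.39 TPM from 13 and 21 counts, on either side of the limit. Atrn, an accessory receptor for agouti protein, was at 14.6 and 14.9 TPM. Mgrn1, a ubiquitin ligase whose loss darkens the mouse coat, was at 38.8 and 36.7 TPM. None of the 5 detected genes passed 1.5-fold between the libraries, against 6.71% of all genes whose mean count reached 20. The median log2 ratio of the 5 was 0.08.

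Downstream of the receptor, cyclic AMP is made by adenylyl cyclases, activates protein kinase A and raises steroid synthesis. Of 23 genes of this relay 21 were detected, against 56.2% of protein-coding genes. The list was chosen with earlier results of these data known, so this share is no test of the relay. The median level of the relay genes was 19.6 TPM. The 6 highest were Star, the cholesterol transporter, at 5704 ± 171 TPM, the stimulatory G protein gene Gnas at 675 ± 12.8 TPM, the steroidogenic factor gene Nr5a1 at 136 ± 14.6 TPM, the regulatory kinase subunit genes Prkar1a at 128 ± 0.594 TPM and Prkar2b at 109 ± 4.00 TPM, and the catalytic subunit gene Prkaca at 77.0 ± 3.07 TPM. Mc2r lay between Prkar2b and Prkaca, and the lowest Mc2r value, 84.8 TPM, was above the highest Prkaca value, 79.2 TPM. Mrap lay just below Prkaca in the gene table, where their values did not overlap. In the second transcript table the order turned, again without overlap, with Mrap at 73.7 and 81.7 TPM and Prkaca at 70.5 and 65.5 TPM.

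The adenylyl cyclase genes Adcy2, at 0.25 and 0.22 TPM, and Adcy8, at 0.06 and 0.05 TPM, were the relay genes not detected. Between the libraries 11 relay genes were higher in replicate 2 and 11 lower among the 22 with enough counts, and their median log2 ratio was 0.00 to 2 decimals. Among all genes whose mean count reached 20, 6.71% passed 1.5-fold. The one relay gene past 1.5-fold was Crem, a cyclic AMP responsive transcription factor gene named here after its values were seen. It was at 41.5 and 24.3 TPM, with a log2 ratio of -0.92 ± 0.07. Mc2r and Mrap did not share that direction.

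**Figure D5:**
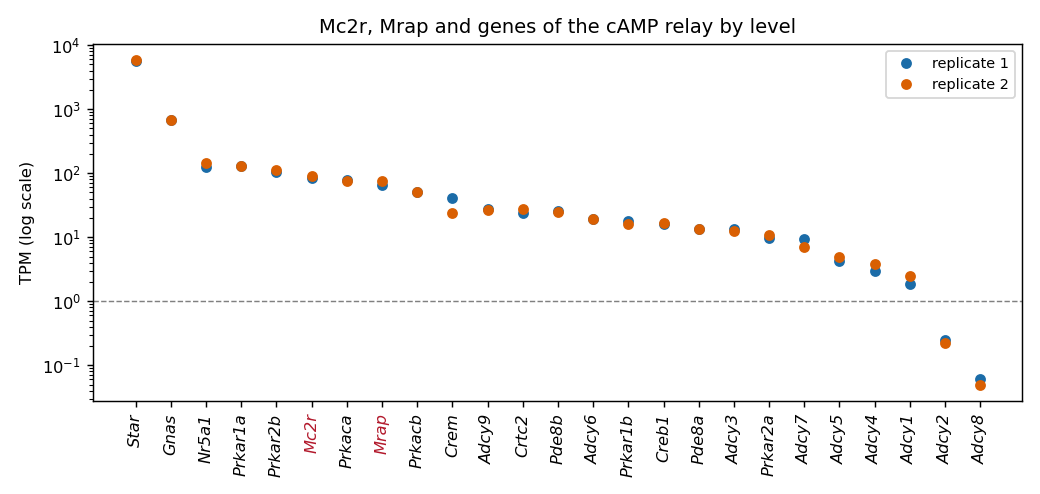
TPM (log scale) of Mc2r, Mrap (red labels) and the cyclic AMP relay genes in each library, ordered by mean level, with the 1 TPM limit dashed. Mc2r and Mrap lie among the protein kinase A subunit genes, and Adcy2 and Adcy8 lie below the limit.

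In people, inherited resistance to corticotropin and related adrenal failure arise from mutations of MC2R, MRAP and a set of other genes. All 9 mouse genes of that list were detected, Mc2r and Mrap among them, against 56.2% of protein-coding genes. This list too was chosen with earlier results of these data known, so its share is no test. Star is also in the relay and cortex lists, so the lists overlap. Mcm4, a subunit of the replicative helicase, was the lowest at 4.02 ± 0.255 TPM and Star the highest. None of the 9 passed 1.5-fold between the libraries, against 6.71% of all genes whose mean count reached 20. The median log2 ratio of the 9 was 0.09. Mc2r and Mrap exceeded every gene of the list other than Star and Cyp11a1, the cholesterol side-chain cleavage gene, which was at 2808 ± 86.2 TPM.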

How the data were processed

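Per gene and transcript, the authors deposited expected counts, TPM and FPKM. Their transcript table also gave the percent of a gene's TPM in each transcript and the posterior SD of its expected count, per the file headers. These values came from reads aligned to the transcriptome of mm10 (GENCODE M21), per the notes deposited beside the files. A second deposited transcript table held TPM and estimated counts computed straight from the reads, and was summed here per gene. Which aligner and quantifiers made them is not given in the sources used here.

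Detected means at least 1 TPM in each library. Between libraries, expected counts of annotated genes were rounded and compared over TMM-scaled totals (edgeR 4.0.16, R 4.3.3; factors 0.997 and 1.00) with a prior count of 0.5 and a mean count of at least 20. DESeq2 1.42.0 size factors were an alternative. The ratio step was tested on simulated counts. Python 3.11.15, numpy 2.4.6, pandas 2.3.3, scipy 1.17.1 and matplotlib 3.10.9 were used. Exact Poisson 95% intervals, standard errors and levels at 3 counts cover counting error only, as reads are not independent molecules. No p-value was computed.

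Sequences and exons came from GENCODE M21, whose build is that of the files. Some receptor sequences are not shown here. The 5 genes and all lists were chosen with earlier results of these data known. Named were every gene of interest and its transcripts at 0.1 TPM or more, all receptor and ligand genes, the 6 highest and the undetected relay genes, and the highest and lowest of each marker list, with exceptions stated.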

Additional observations from a re-analysis of the deposited data

How the results depend on the processing

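Of 69 alternative values of the results 52 stayed within the spread of the libraries or within 1.5 times the count and 17 moved. For levels, ratios and shares, values without 1 library had to stay within that spread. Each of 2 values lies within 1 SD of their mean. Ratios in FPKM were near those in TPM by construction. Levels and ratios had no label for a change of order. The Mc2r to Mrap order turned in replicate 2 of the second table, and the leading Mrap2 transcript differed between the libraries. The second transcript table gave 77.6 TPM for Mc2r, 77.7 for Mrap, 1.78 for Mrap2 and 0.203 for Mc1r, a Mc2r to Mrap ratio of 1.00, a Mrap to Mrap2 ratio of 43.7 and a Mrap-201 share of 69.3%. TPM rescaled over protein-coding genes was higher by construction: 237 for Mc2r, 190.3 for Mrap, 3.99 for Mrap2, 0.0816 for Mc1r and 0.0958 for Mc5r. Expected counts not divided by length gave ratios of 2.16 and 21.6. Against Mrap-201 alone, a part of Mrap chosen after seeing the data, the Mc2r ratio was higher by construction: 1.46, and 1.45 in the second table. Without a count minimum 2 genes, Mc1r and Mc5r, passed 1.5-fold, on 2 to 5 counts a library. The Mc2r to Mc5r ratio in TPM was 1696 in replicate 1 and 4468 in replicate 2, and depth limits it. Causes of the differences between tables were not tested. No paired analysis was possible because the series held 1 group.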
